A study of Saccharomyces cerevisiae with 8 samples.

Results

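Divergent gene pairs are neighbouring genes that are transcribed away from each other, the left one from the reverse strand and the right one from the forward strand, so that a single stretch of DNA carries the promoters of both. In the R64 annotation of Saccharomyces cerevisiae, 1228 pairs of protein-coding genes had this arrangement with start codons at most 1000 bp apart and no annotated gene between them, out of 1416 such divergent gaps of any length. These pairs hold 2456 of the 6002 nuclear protein-coding genes. The start sites in the gaps were mapped by CAGE-seq (cap analysis gene expression and sequencing), which sequences the capped 5′ ends of RNA. A start was taken as the 5′ boundary of a deposited CAGE peak that lay between both start codons and pointed out of the gap.

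The 8 libraries came from BY4741, a laboratory strain with the his3, leu2, met15 and ura3 markers, in which a synthetic human HPRT1 locus or its reversed (not complemented) version HPRT1R was carried as a yeast artificial chromosome (the episome) or integrated on chromosome XI. Each locus in each context makes a group, so there were 4 groups, and each was represented by 2 replicate colonies of 1 strain. Episome strains were grown in SC-Leu, a defined medium without leucine, and integrated strains in YPD, a rich medium, both at 30 °C to mid-log phase. Context and medium therefore cannot be told apart in any comparison of episome with integrated libraries. The native chromosomal genes described here are the same in all 4 groups. Per the study's methods, integrated strains were made with a HIS3 plasmid that expresses Cre recombinase. Whether the colonies used here still carried this plasmid is not stated there.

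In yeast, the start codons of most genes lie a short way downstream of a nucleosome-depleted region, and RNA polymerase II initiates at the edges of that region. General regulatory factors such as Reb1 and Rap1 keep such regions open, and pathway factors such as Gcn4, the activator of amino acid synthesis genes, bind within them. In a divergent gap, a preinitiation complex can form at each edge, and the histone and vitamin B6 genes are known examples of pairs whose members share a gap and a function.

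Sequences between the start sites are shown for 7 pairs that the results below return to. They run 5′ to 3′ on the forward strand, from the start of the left gene to that of the right gene, in the R64 (RefSeq) assembly, and were trimmed to the central 300 bases where the starts lay farther apart. Capitals mark the letters searched for, on either strand. These were TATAAA for the core promoter box of that name, TTACCC for Reb1, CACCCA for the core bound by Rap1, TGACTC for Gcn4, CACGTG for Cbf1 and ACGCGT for the MluI cell cycle box. A match on the reverse strand appears as the reverse complement. A match is a description of the letters and no evidence of binding. MRM1-HIS3 (chrXV:721727-721921) and SNO1-SNZ1 (chrXIII:458019-458318) are textbook gaps with Gcn4 letters, COX9-IDP1 (chrIV:334603-334801) had a member that differed between contexts, RPL11A-PRE2 (chrXVI:731914-732213) and MBF1-BUD7 (chrXV:877916-878215) had very unequal sides, HTA2-HTB2 (chrII:235962-236261) had nearly equal sides, and MAP2-MRP21 (chrII:48681-48765) had the closest starts among pairs called on both strands in all 8 libraries.
MRM1-HIS3: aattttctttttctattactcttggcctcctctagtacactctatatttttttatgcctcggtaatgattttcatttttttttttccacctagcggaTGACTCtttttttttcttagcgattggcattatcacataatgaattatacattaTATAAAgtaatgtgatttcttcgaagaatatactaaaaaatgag
SNO1-SNZ1: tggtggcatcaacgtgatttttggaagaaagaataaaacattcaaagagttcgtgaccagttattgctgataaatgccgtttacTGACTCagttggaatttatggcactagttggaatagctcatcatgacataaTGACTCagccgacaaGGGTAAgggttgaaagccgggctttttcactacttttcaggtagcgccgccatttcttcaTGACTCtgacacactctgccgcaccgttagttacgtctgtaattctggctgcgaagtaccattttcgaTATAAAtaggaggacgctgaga
COX9-IDP1: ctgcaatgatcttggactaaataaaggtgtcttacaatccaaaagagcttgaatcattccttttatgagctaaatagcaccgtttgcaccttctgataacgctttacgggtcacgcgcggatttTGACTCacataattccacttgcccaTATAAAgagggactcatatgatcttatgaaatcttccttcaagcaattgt
RPL11A-PRE2: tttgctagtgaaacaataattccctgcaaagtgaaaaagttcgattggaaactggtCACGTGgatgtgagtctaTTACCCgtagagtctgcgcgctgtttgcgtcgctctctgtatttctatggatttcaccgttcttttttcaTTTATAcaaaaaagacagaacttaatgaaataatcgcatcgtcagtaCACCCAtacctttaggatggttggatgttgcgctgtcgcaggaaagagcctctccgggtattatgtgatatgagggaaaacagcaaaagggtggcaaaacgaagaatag
MBF1-BUD7: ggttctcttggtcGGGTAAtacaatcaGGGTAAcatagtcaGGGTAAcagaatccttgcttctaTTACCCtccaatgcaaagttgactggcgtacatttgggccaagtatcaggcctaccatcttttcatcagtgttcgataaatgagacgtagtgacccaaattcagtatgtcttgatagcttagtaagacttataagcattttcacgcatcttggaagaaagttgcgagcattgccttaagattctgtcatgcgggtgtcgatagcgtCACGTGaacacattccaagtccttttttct
HTA2-HTB2: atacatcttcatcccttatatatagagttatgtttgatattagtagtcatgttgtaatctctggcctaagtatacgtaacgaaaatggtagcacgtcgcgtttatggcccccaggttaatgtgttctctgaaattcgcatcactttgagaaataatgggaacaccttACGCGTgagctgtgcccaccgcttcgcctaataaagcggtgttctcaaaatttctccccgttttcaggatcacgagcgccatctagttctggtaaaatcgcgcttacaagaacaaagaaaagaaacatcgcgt
MAP2-MRP21: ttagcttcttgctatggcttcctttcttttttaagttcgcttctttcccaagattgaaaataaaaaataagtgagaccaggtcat

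Starts were called on both strands in a minority of the gaps. Per library, 18.8% to 24.3% of the 1228 gaps had a peak on both strands, with a mean of 20.7% ± 1.74 (SD, n = 8). A peak on the reverse strand alone was found in 19.5% to 22.8% of gaps and a peak on the forward strand alone in 23.4% to 25.9%, and 29.3% to 36.2% had no peak. The forward strand held more single peaks, and it was also the more sensitive of the strands. The lowest height called was 8.48 to 9.65 RPM on the forward strand and 13.7 to 14.6 RPM on the reverse strand, where height is the summit pileup per 1000000 aligned reads (RPM). Libraries held 6.48 to 8.85 units of 1000000 aligned reads (M) by the estimate used here, and a start below these heights is not in the lists. A missing peak therefore means that none was listed and does not show that the start was unused.

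**Figure D1:**
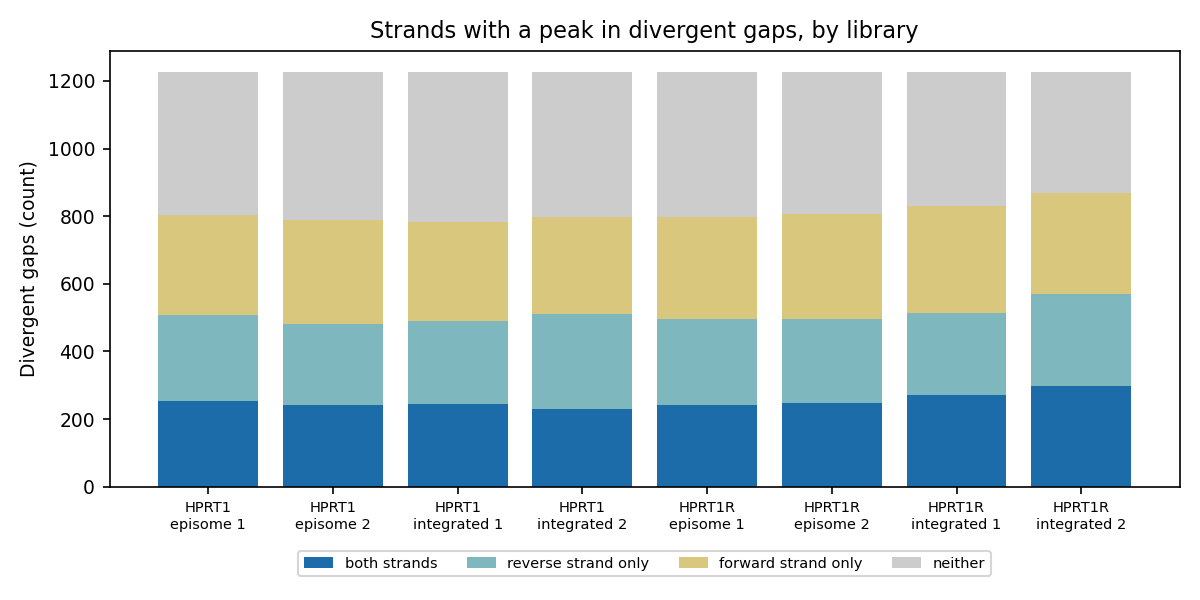
Number of the 1228 divergent gaps (y axis) with a peak on both strands, on the reverse strand alone, on the forward strand alone or on neither, in each of the 8 libraries (x axis). The both-strand class holds 231 to 299 gaps, and the tallest bar segment of that class belongs to HPRT1R integrated replicate 2.

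The strands of a gap were called together more often than their separate shares give. If the strands were independent, the product of the single-strand shares would put 17.5% to 22.6% of gaps in the both-strand class. The observed share was 1.10 times that product (SD of the ratio 0.0233, range 1.07 to 1.14), above 1 in 8 of 8 libraries (exact two-sided permutation of signs over libraries, p = 0.0078, the smallest value that 8 libraries allow, adjusted p = 0.0130 over 5 tests). Libraries hold the same genes, so this test covers the spread between libraries and not the sampling of pairs. For comparison, the start peaks of 2372 pairs of tandem neighbours, which lie on the same strand and start in different gaps, gave a ratio of 1.05 (SD 0.0189). The divergent ratio exceeded the tandem ratio in 8 of 8 libraries, by 1.05 times (exact sign permutation, p = 0.0078), in a comparison that was chosen after the main values were seen. With summits in place of 5′ ends the divergent ratio was 1.07 and no longer passed (exact sign permutation, p = 0.797), and summits lay a median of 106 bp downstream of the 5′ end, where they often fall inside the coding sequence.

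Genes of divergent pairs had a called start more often than tandem genes. A start peak was present for 41.9% to 47.5% of divergent genes and for 34.9% to 40.1% of tandem genes, the genes of 2404 gaps of the same length limit whose upstream neighbour lies on the same strand. The difference was 6.61 percentage points ± 0.679 (SD, n = 8), with divergent genes higher in 8 of 8 libraries (exact sign permutation, p = 0.0078, adjusted p = 0.0130). It shrank to 0.865 points when peaks were placed by their summits (exact sign permutation, adjusted p = 0.0195). The leader, the stretch from the start to the start codon, had a median of 47 to 54 bp for divergent genes and 53 to 57 bp for tandem genes, a ratio of 0.924, lower in 8 of 8 libraries (exact sign permutation, p = 0.0078, adjusted p = 0.0130). With summits in place of 5′ ends the direction reversed, to a ratio of 1.51 (exact sign permutation, adjusted p = 0.0195), so the shorter leader of divergent genes holds for the 5′ ends of the peaks alone. The gaps also differed in length and base composition. Divergent gaps had a median of 420.5 bp and tandem gaps of 365 bp, and the central 200 bp held 37.2% G and C in divergent and 34.7% in tandem gaps. The part of base composition in these differences was not tested. Every library holds the same divergent and tandem genes. The tests of start share and leader therefore cover the spread between libraries and not the sampling of genes.

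**Figure D2:**
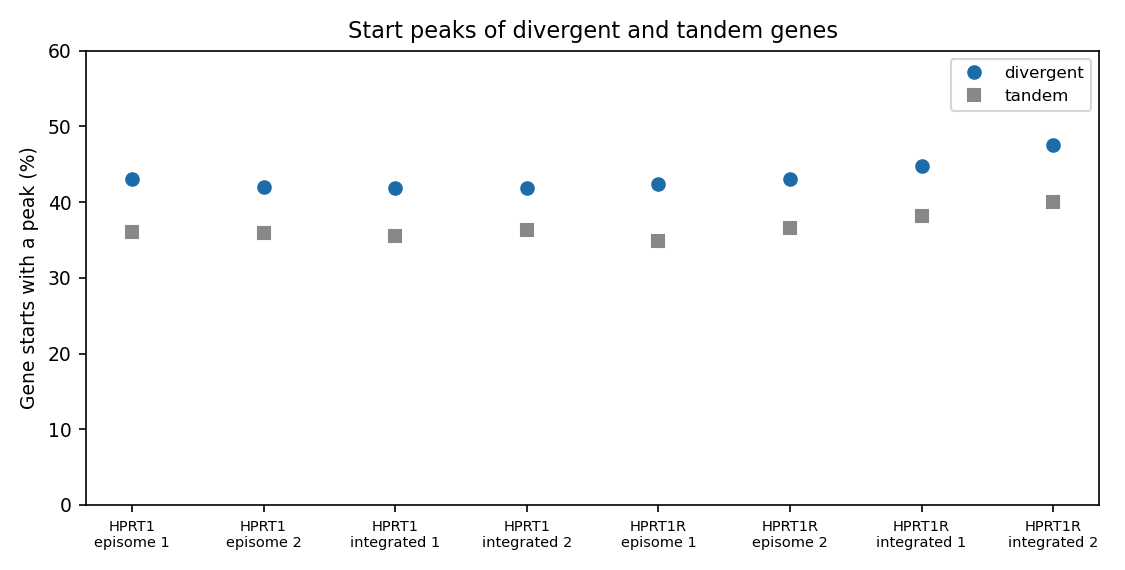
Share of gene starts with a peak in percent (y axis) in each of the 8 libraries (x axis), for genes of divergent pairs (circles) and tandem genes (squares). Circles lie between 41.9% and 47.5% and squares between 34.9% and 40.1%, with the circle above the square in every library.

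The share of gaps called on both strands was lowest in the shortest gaps. It was 14.4% ± 2.21 for the 251 gaps up to 250 bp, 22.1% ± 2.55 for the 483 gaps of 251 to 500 bp, 23.3% ± 2.01 for the 334 gaps of 501 to 750 bp and 20.8% ± 1.24 for the 160 gaps of 751 to 1000 bp (SD over 8 libraries). The longer classes overlapped within their spread. A start counts only inside the gap, so the rule leaves less room for it in short gaps. The part of this rule in the low share was not tested. Tandem genes also had start peaks least often in the shortest class, 32.6% ± 1.99. Their shares were 39.1%, 35.2% and 34.6% in the longer classes. The ratio of observed to expected both-strand calls was 1.09, 1.07, 1.09 and 1.20 in the same order. The longest gap inside the limit, SMI1-BNS1 with 994 bp, had a peak at BNS1 in 2 libraries and none at SMI1, and the shortest gap outside it, MNT2-ADH4 with 1001 bp, had a peak at MNT2 in 4 libraries and none at ADH4.

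Over all libraries, 66 pairs had a peak on both strands in all 8 libraries, 483 in some and 679 in none. Of all pairs, 611 had each strand called in at least 1 library and 139 had no peak in any library. Another 61 pairs had the left gene alone called in all 8 libraries and 79 the right gene alone. The called side of these 140 one-sided pairs had a median height of 112.6 RPM. In the 66 two-sided pairs the taller side had a median of 416.6 RPM and the lower side of 105.6 RPM.

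Among the 66 pairs, the starts lay a median of 294.5 bp apart, with an interquartile range of 188 to 503 bp and extremes of 86 and 780 bp. The distance was between 100 and 300 bp in 32 pairs, over 300 bp in 32 and under 100 bp in 2. It grew with the gap, which bounds it because both starts must lie between the start codons. Over all gaps called on both strands in a library, the median distance was 157 bp in gaps up to 250 bp. It was 212 bp in gaps of 251 to 500 bp, 470 bp in gaps of 501 to 750 bp and 644 bp in the longest class. Starts that crossed, with the right gene starting left of the left gene, were uncommon: the starts of both genes overlapped in this way in 10 of 2033 cases over all pairs and libraries, or 0.492%.

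**Figure D3:**
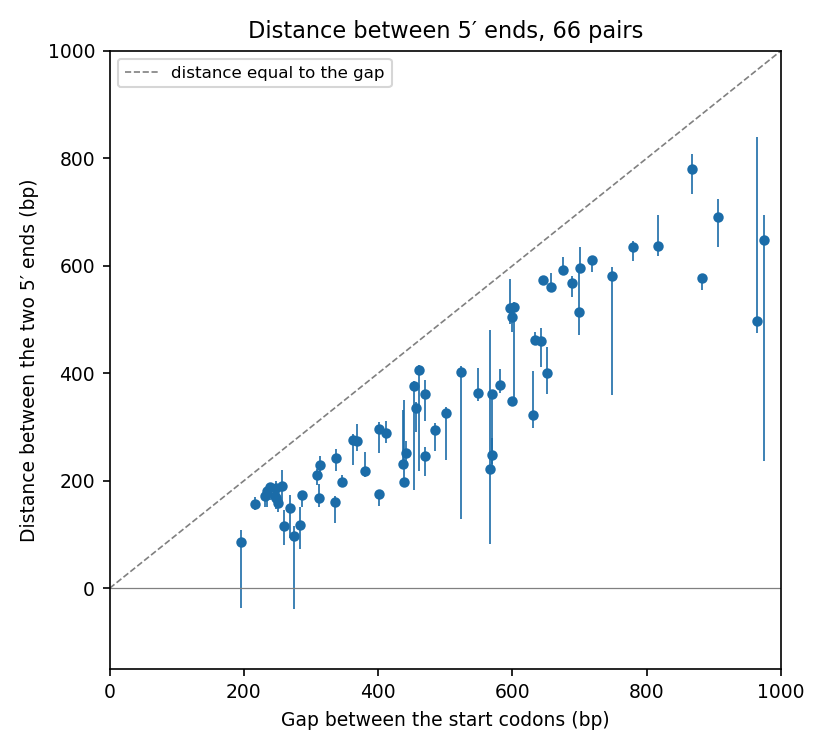
Distance between the 5′ ends of the left and right peaks in bp (y axis) against the gap between the start codons in bp (x axis) for the 66 pairs called on both strands in all 8 libraries. Points are medians and bars the lowest and highest library; medians range from 86 to 780 bp and all lie under the dashed line where distance equals the gap.

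Among the 66 pairs called on both strands in all 8 libraries, the closest starts were those of MAP2-MRP21, with a gap of 196 bp on chromosome II, and their median distance was 86 bp. MAP2 codes for a methionine aminopeptidase and MRP21 for a mitochondrial ribosomal protein. The MAP2 start fell between positions 48679 and 48691 in the 8 libraries, whereas that of MRP21 moved between 48652 and 48789, and the distance accordingly ran from -36 to 109 bp. Both genes were well above the floor, with 787 ± 206 RPM for MAP2 and 312 ± 98.5 RPM for MRP21 (SD, n = 8). The sequence between the starts, printed above, holds none of the motifs that were searched. MRPL31-CMC1 (a mitochondrial ribosomal protein and a protein of cytochrome oxidase assembly) followed with a median distance of 96.5 bp and ECM14-IGO2 with 115 bp. The widest distances among the 66 pairs were 780 bp for UGX2-SFA1, 691 bp for GSH1-LSB6 and 647 bp for COA6-FAA4. GSH1 makes the first step of glutathione synthesis and SFA1 codes for a formaldehyde dehydrogenase. COA6-FAA4 was the least fixed of these 3, since its distance ran from 236 to 695 bp between libraries. Pairs called on both strands in fewer libraries reached past both ends, with 805 bp for PEA2-SPI1 in 1 library. YET3-BDF2 was called on both strands in 2 libraries, with crossed starts (-96 bp) in 1 and 126 bp in the other. Its median of 15 bp therefore describes neither library.

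The sides of a gap were seldom of the same height. In the 66 pairs the taller side exceeded the lower by a median of 2.57-fold, with an interquartile range of 1.44 to 6.41 and a highest ratio of 86.3. The ratio was under 2 in 28 pairs and over 10 in 12. The same side was the taller in all 8 libraries in 41 pairs, the left side in 25 and the right side in 16. Heights of the sides were weakly related, with a Pearson correlation of log heights of 0.13 on average (range 0.07 to 0.18) over the 231 to 299 pairs called on both strands in a library, which share the library and its depth. Genes with close paralogues, such as the histone, ENO2 and ribosomal protein genes, are subject to how reads with several matches were placed, which is not given in the sources used here.

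**Figure D4:**
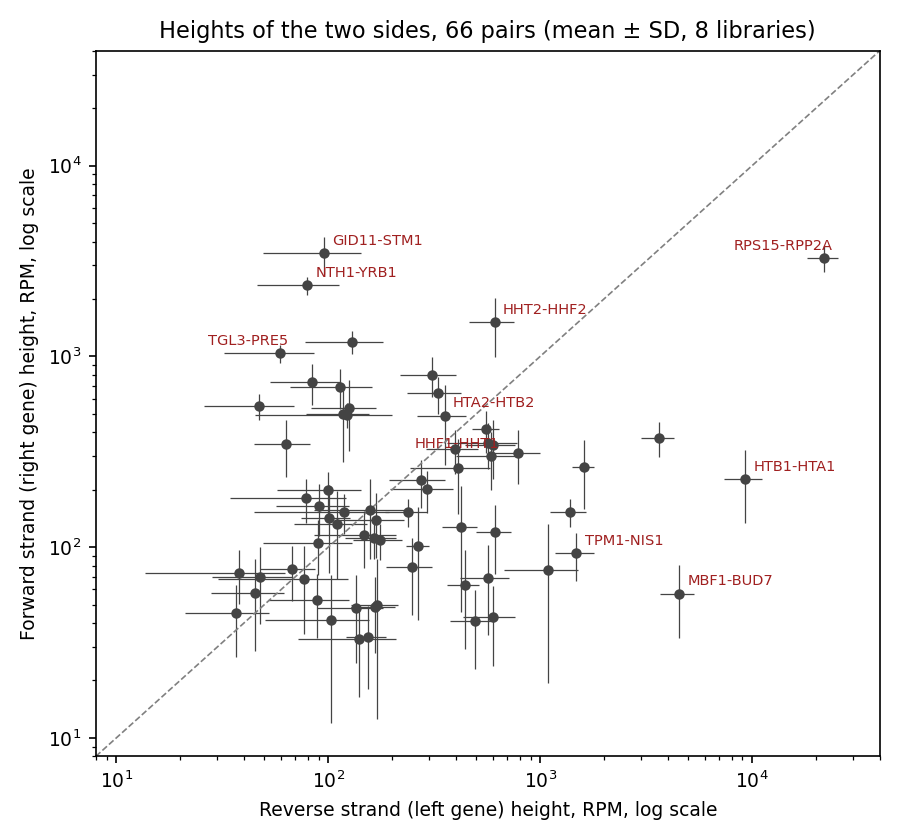
Mean height in RPM on log scales of the left gene (reverse strand, x axis) and the right gene (forward strand, y axis) for the 66 pairs called on both strands in all 8 libraries. Bars are the SD over 8 libraries, the dashed line marks equal heights, and the labelled pairs farthest from it include MBF1-BUD7 and HTB1-HTA1.

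Some gaps were highly active on both sides. RPS15 and RPP2A, which code for proteins of the small ribosomal subunit and of the ribosomal stalk, had the tallest lower side. RPS15 stood at 18188 to 29241 RPM (median 20865) and RPP2A at 2550 to 3938 RPM (median 3207), so that RPS15 was 6.52-fold taller, in 8 of 8 libraries, and the starts were 610.5 bp apart. RPL11A, another ribosomal protein gene, had 2793 to 4241 RPM against 213 to 492 RPM for PRE2, a catalytic subunit of the proteasome, in a gap of 600 bp with the letters of Cbf1, Reb1 and Rap1 sites and a TATA box in the sequence above. HNT1-YDL124W and YCR087C-A-ABP1 had more even sides, with ratios of 1.37 and 1.50. HNT1 codes for a nucleotide hydrolase and ABP1 for an actin-binding protein.

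The most unequal gap among these 66 pairs was MBF1-BUD7. MBF1, a coactivator that links Gcn4 to the basal machinery, had 3363 to 5631 RPM (median 4542), and BUD7, a protein of cargo export to the cell surface, had 29.5 to 90.6 RPM (median 57.5). MBF1 was the taller in 8 of 8 libraries, by 86.3-fold. The stretch shown above carries TTACCC at 4 places, in which the letters stand on the reverse strand at positions 14, 28 and 42 of the stretch and on the forward strand at position 65, and CACGTG at position 271. For scale, 22.9% of the 817 divergent gaps of at least 300 bp had TTACCC in their central 300 bp, and 2 of them had it 4 or more times. Larger ratios came from pairs called on both strands in 1 library, 213-fold for EGD2-MDM31 and 131-fold for PEA2-SPI1. GID11-STM1 was 43.3-fold in favour of STM1, a ribosome-associated protein, with 2367 to 4558 RPM against 34.6 to 152 RPM for GID11, a subunit of the GID ubiquitin ligase. NTH1-YRB1 was 32.9-fold in favour of YRB1, a Ran-binding protein of nuclear transport, over NTH1, the neutral trehalase. TPM1-NIS1 (tropomyosin and a bud neck protein) was 16.8-fold in favour of TPM1, and TGL3-PRE5 (a triacylglycerol lipase and a proteasome subunit) was 16.4-fold in favour of PRE5.

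One-sided pairs had tall members as well. The tallest, which were chosen after their values were seen, were AHP1 (7565 ± 640 RPM, SD, n = 8), a peroxiredoxin, beside YLR108C, and ENO2 (5797 ± 755 RPM), the enolase, beside YHR173C. CCW12, a cell wall protein, had 4661 ± 725 RPM beside YLR111W, and RPS22A had 4241 ± 935 RPM beside RPL39, another ribosomal protein gene. No peak was called for any of these partners in any library. A missing peak does not show that their starts were unused, and the part of introns here was not tested. Several partners, YHR173C and YLR111W among them, are open reading frames with systematic names only. In 19 of the 140 one-sided pairs the called side was over 1000 RPM, as was the taller side in 13 of the 66 two-sided pairs.

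A side was somewhat taller where its partner was also called. The median height of the right gene was 62.4 ± 5.12 RPM with the left gene called and 51.7 ± 3.05 RPM without it, higher in 8 of 8 libraries, and that of the left gene was 70.8 ± 4.70 against 67.0 ± 3.97 RPM, higher in 6 of 8 libraries (SD, n = 8).

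Of the textbook pairs, the 4 histone pairs were called on both strands in all 8 libraries. Each codes for a histone dimer, H2A-H2B or H3-H4, and the 8 core histone genes all lie in divergent gaps. HTB1 (H2B) was far taller than its partner HTA1 (H2A). Its heights were 6621, 6492, 9941 and 8320 RPM in the episome libraries and 10230, 10337, 11284 and 10624 RPM in the integrated libraries, with HPRT1 replicates 1 and 2 before those of HPRT1R. HTA1 had 335, 184, 151 and 111 RPM in the episome and 183, 392, 228 and 239 RPM in the integrated libraries, and HTB1 was 47.0-fold taller. The sides of the other histone pairs were closer, with ratios of 1.24 for HTA2-HTB2, 1.89 for HHF1-HHT1 and 2.45 for HHT2-HHF2. The taller side was HTB2 in 7 of 8 libraries, HHF1 in 8 and HHF2 in 8. Starts of the histone pairs were 513.5 to 636.5 bp apart.

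The vitamin B6 gap SNO1-SNZ1, whose genes code for both subunits of pyridoxal phosphate synthase, was called in episome libraries alone. SNZ1 had 393, 298, 254 and 415 RPM in the 4 episome libraries and no peak in the 4 integrated libraries. SNO1 had 55.9, 92.7 and 49.2 RPM in 3 episome libraries, with no peak in HPRT1R episome replicate 2 or in any integrated library. SNZ1 was 5.16-fold taller than SNO1, in the 3 libraries with both, and the starts were 372 bp apart. The stretch printed above has TGACTC at positions 85, 136 and 211 and TATAAA at position 279, toward SNZ1. In the central 300 bp of the 817 divergent gaps of at least that length TGACTC occurred in 7.47%, with 2 gaps holding it 3 or more times, and TATAAA in 37.2%. The copies of this gap near chromosome ends were barely called: SNO2-SNZ2 had a peak at SNO2 in 2 libraries and at SNZ2 in 1, and SNO3-SNZ3 at SNO3 in 1 and at SNZ3 in 1. The share of 75-base words in and around a gap that recur elsewhere in the genome was 0.267 for SNO2-SNZ2 and 0.265 for SNO3-SNZ3. This share was 0 for SNO1-SNZ1. The part of read placement in these calls was not tested.

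HIS3, an enzyme of histidine synthesis whose coding sequence is partly deleted in BY4741, and MRM1, a mitochondrial rRNA methyltransferase, start 195 bp apart in a gap of 237 bp. MRM1 was near the floor, with 15.3 to 27.1 RPM in 5 libraries. HIS3 had 78.1, 119, 30.2 and 79.3 RPM in the episome libraries, 1545 RPM in HPRT1 integrated replicate 1, 73.5 RPM in HPRT1R integrated replicate 2 and no peak in the other integrated libraries. A single library thus stood far above the rest, and the other replicate of its group had no peak. The HIS3 start lay between positions 721920 and 721934 of chromosome XV wherever it was called. The maltose pair MAL11-MAL12 had no peak, as did the mating-type pairs at MAT, HML and HMR, which are repeats of each other and where BY4741 carries the a allele at MAT. GAL10-GAL1 and MAL31-MAL32 were not members, because an antisense RNA gene and a small coding gene, respectively, are annotated in their gaps.

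The groups of genes with a common function differed in how often they lay in divergent gaps and were called there. Of the 35 proteasome genes, 19 (54.3%) were members, and 80.9% ± 4.82 of these had a start peak per library, 13 of them in all 8 libraries. Of 71 mitochondrial ribosomal protein genes 35 were members, with 70.7% ± 7.75 called, and of 18 aminoacyl-tRNA synthetase genes 12 were members, with 71.9% ± 8.84 called. The share over all divergent genes was 43.3% ± 1.96 (SD, n = 8 libraries). Cytosolic ribosomal protein genes were called less often than this average, 31.4% ± 1.74 of 57 members, although those called were tall, with a median of 760 RPM against 41.7 RPM over all called members. Of these 57 members, 16 were called in all 8 libraries and 31 in none. No listed peak does not show that a start was unused, and the part of introns in these counts was not tested. There were 4 gaps with a cytosolic ribosomal protein gene on both sides, and 1 of them, RPS15-RPP2A, was called on both strands throughout. These group values are descriptions without a test.

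The share of gaps called on both strands did not differ between contexts beyond the spread between libraries. The means were 20.1% ± 0.484 and 21.3% ± 2.43 (SD, n = 4), a difference of -1.16 percentage points for episome minus integrated (exact two-sided permutation, p = 0.429). HPRT1R libraries had 1.77 percentage points more than HPRT1 libraries (exact permutation, p = 0.171, adjusted p = 0.214). The difference between contexts was 0.855 points in HPRT1 and -3.18 points in HPRT1R strains (exact permutation of the difference, p = 0.167). The highest share, 24.3%, came from HPRT1R integrated replicate 2. This library had an estimated 7.05 M aligned reads, where the libraries ranged from 6.48 to 8.85 M. The part of depth in this share was not tested.

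Single starts did differ between contexts. Heights were compared for the 1141 genes of any arrangement with a start peak in all 8 libraries (limma with locus as a covariate, Benjamini-Hochberg adjustment over all 1141). The background of this test was 1.58% of all genes called higher and 1.75% called lower in integrated libraries. Among the 519 divergent sides tested, 11 (2.12%) were higher and 6 (1.16%) lower, shares near the background. The median log2 change was 0.15 for these sides and 0.13 for all genes, so changes are to be read relative to that shift. No gene passed for a difference of the context effect between HPRT1 and HPRT1R by limma, and 102 of the 1141 had an unadjusted p under 0.05 for it. The number of calls depended on the fit: with the deposited fold enrichment in place of height, no divergent side was called by limma, while 92 had an unadjusted p under 0.05 in the fit on heights, and leaving out any library gave 8 to 16 called sides, with 8 without HPRT1 integrated replicate 2 or HPRT1R integrated replicate 1. CHA1, HSP12, MMF1, LEU4, RIB4, SPI1 and HHF2, 7 of the 17 sides, stayed called whichever library was left out, and the other 10 were lost without at least 1 library. Over 13 other settings of the fit, these omissions included, CHA1 and HSP12 kept their call in 12. MMF1, LEU4, RIB4, SPI1 and HHF2 kept theirs in 11. In a limma fit without trend only CHA1 and HSP12 stayed called.

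Among the starts with a peak in all 8 libraries, which are the ones tested, CHA1, the catabolic serine and threonine deaminase, had the largest called difference of a divergent side. Its heights were 56.8, 44.4, 137 and 28.7 RPM in episome and 427, 596, 538 and 385 RPM in integrated libraries, without overlap, a log2 difference of 3.09 (SE 0.41, limma adjusted p = 0.00026). VAC17, its partner and the vacuole-specific receptor of myosin, was called in 4 episome libraries at 14.6 to 33.5 RPM and in 2 integrated libraries at 41.9 and 16.5 RPM. The CHA1 and VAC17 starts were 343.5 bp apart. Its adjusted p was 0.010 at most when a library was left out (limma).

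HSP12, a stress protein of the membrane, was lower in integrated libraries. It had 4573, 4069, 3823 and 5561 RPM in episome and 1632, 1371, 1512 and 1287 RPM in integrated libraries, a log2 difference of -1.63 (SE 0.15, limma adjusted p = 1.0e-05). No peak was called for YFL015C across the gap. MPC3, a subunit of the mitochondrial pyruvate carrier, had 139, 137, 90.8 and 152 RPM against 46.6, 17.4, 32.7 and 39.6 RPM, a log2 difference of -1.99 (SE 0.44, limma adjusted p = 0.020). MPC3 kept its call in 3 of 8 omissions of a library, over which its limma adjusted p ran from 0.014 to 0.077. With fold enrichment in place of height, CHA1 and MPC3 had log2 differences of 3.06 and -2.09 (limma adjusted p = 0.062 and 0.088), whereas HSP12 had -0.0029, SPI1 -0.031, RIB4 -0.068, HHF2 0.072 and HTB1 0.00014. The heights of these 5 starts thus differed between contexts, while their deposited fold enrichment barely changed. The fold divides by a background from the same library, assumed here to span 10 kb, in which the start itself counts. It can stay nearly fixed at a tall start whose height changes, so these values do not decide whether the calls hold. The part of this in the values was not tested.

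LEU4, the first enzyme of leucine synthesis, was also lower in integrated libraries. It had 729, 790, 643 and 799 RPM in the episome libraries, grown without leucine, and 352, 440, 316 and 331 RPM in the integrated libraries (log2 difference -1.05, SE 0.19, limma adjusted p = 0.0039). MET4, the activator of sulfur amino acid genes on its other side, was called in 3 libraries at 12.8 to 20.8 RPM. RIB4, lumazine synthase of riboflavin synthesis, had 1684, 1357, 1489 and 1267 against 718, 985, 615 and 602 RPM, without overlap (log2 difference -1.01, SE 0.17, limma adjusted p = 0.0020). RRP40, an exosome subunit that faces RIB4, gave a log2 difference of 0.83 with an SE of 0.62, which did not pass (limma adjusted p = 0.53). SPI1, a cell wall protein, was lower at log2 -0.94 (SE 0.16, limma adjusted p = 0.0020), with PEA2 called in 1 library. IDP1, mitochondrial isocitrate dehydrogenase, was lower at log2 -1.11 (SE 0.29, limma adjusted p = 0.049) and was called in none of the 8 omissions of a library, with adjusted p from 0.053 to 0.15.

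The 11 sides that were higher in integrated libraries included 4 histone genes. HHF2 had 914, 1038, 1129 and 1064 RPM in episome and 1949, 2188, 1953 and 1837 RPM in integrated libraries, without overlap (log2 difference 0.94, SE 0.15, limma adjusted p = 0.0012). HHF1 (log2 0.86, limma adjusted p = 0.017), HTB2 (1.01, limma adjusted p = 0.038) and HTB1 (0.46, limma adjusted p = 0.046) were called too. Their partners HHT2, HHT1, HTA2 and HTA1 had log2 differences of 0.47, 0.60, 0.50 and 0.48 that did not pass (limma adjusted p of 0.26, 0.26, 0.27 and 0.48). HTB1 kept its call in 1 of 8 omissions of a library (limma adjusted p 0.0076 to 0.15), HTB2 in 4 (0.018 to 0.19), HHF1 in 5 (0.013 to 0.067) and HHF2 in 8. With median-normalized heights HHF2 passed and HTB2 did not (limma adjusted p = 0.0048 and 0.083).

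The other higher sides were of varied function. MMF1, a mitochondrial protein linked to isoleucine metabolism, had 642, 524, 716 and 622 RPM against 1324, 1415, 1170 and 1266 RPM (log2 1.05, SE 0.17, limma adjusted p = 0.0012), opposite PCL7, which had no peak. BDF2, a bromodomain protein, was higher at log2 1.43 (SE 0.30, limma adjusted p = 0.015) and LST8, a subunit of the TOR complexes, at 1.01 (SE 0.24, limma adjusted p = 0.031). NOP1, the fibrillarin of the nucleolus, TDH1, a glyceraldehyde-3-phosphate dehydrogenase, and EGD2, a subunit of the nascent polypeptide-associated complex, were higher at log2 0.89, 0.73 and 0.56. When single libraries were left out, limma adjusted p ran from 0.011 to 0.094 for BDF2, 0.0066 to 0.12 for LST8, 0.022 to 0.10 for NOP1, 0.015 to 0.13 for TDH1 and 0.0022 to 0.16 for EGD2. EGD2 was called in 1 of 8 omissions, and its episome value in HPRT1R replicate 2 was far above the other 3. With median-normalized heights LST8 and NOP1 did not pass (limma adjusted p = 0.077 and 0.067). MMF1 and BDF2 passed there (limma adjusted p = 0.0048 and 0.031). Of the fixed gene groups, 4 of 8 core histone sides tested were higher, as were 1 of 11 ribosome biogenesis sides (NOP1) and 1 of 4 glycolysis sides (TDH1), and 1 of 4 amino acid synthesis sides (LEU4) was lower. None was called among 16 cytosolic ribosomal, 15 mitochondrial ribosomal, 13 proteasome and 5 aminoacyl-tRNA synthetase sides, with group medians of log2 0.24, 0.41, 0.03 and 0.34. Against the background of 1.58% higher and 1.75% lower, groups of this size give few calls or none, and nothing is read from the zeros.

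The 17 sides called lay in 17 different pairs. The partner had a peak in all 8 libraries for 7 of them, in some for 6 and in none for 4, so that 7 partners were tested. None of these 7 passed (limma), which at a background of 1.58% and 1.75% says little about whether sides change together. An unadjusted limma p under 0.05 on both sides occurred in 5 of the 66 pairs with both sides tested. Single divergent sides reached that level in 92 of 519 cases and genes of any arrangement in 200 of 1141. Nothing is read from the 5 pairs. In the 66 pairs with both sides tested, the log2 differences of the sides had a Pearson correlation of 0.24 across pairs, and 38 of 66 pairs had both sides on the same side of the all-gene median. For 86 pairs of tandem neighbours with both genes tested the correlation was -0.10. These are descriptions over pairs that share the same 8 libraries. COX9-IDP1 came nearest, since COX9, a subunit of cytochrome oxidase, had a log2 difference of -0.80 (SE 0.24) beside -1.11 for IDP1, but it missed the threshold (limma adjusted p = 0.094). Its stretch printed above has TGACTC at position 125 and TATAAA at position 150, toward IDP1.

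Some starts were called in every library of one context and in none of the other. Over 5933 gene starts, 0.118% were called in 4 of 4 episome and 0 of 4 integrated libraries, and likewise 0.118% the other way round. Among the 2456 divergent sides there were 3 of the first kind (0.122%) and 2 of the second (0.0814%), shares near the background. Of the first kind, SNZ1 was the tall one. CFD1, a factor of cytosolic iron-sulfur assembly, had 13.2 to 35.3 RPM and PHM7 had 17.7 to 35.0 RPM in the episome libraries. Of the second kind, TBS1 had 22.0 to 44.9 RPM and NIP100, a subunit of dynactin, had 26.5 to 41.4 RPM in the integrated libraries. Apart from SNZ1, none of these starts exceeded 44.9 RPM, where the lowest heights called were 8.48 to 14.6 RPM. The partner of TBS1, APD1, was called in all 8 libraries, at 240 ± 71.6 RPM in episome and 240 ± 69.2 RPM in integrated libraries (SD, n = 4), so the left side of this gap was called in 1 context beside a right side of equal mean height.

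**Figure D5:**
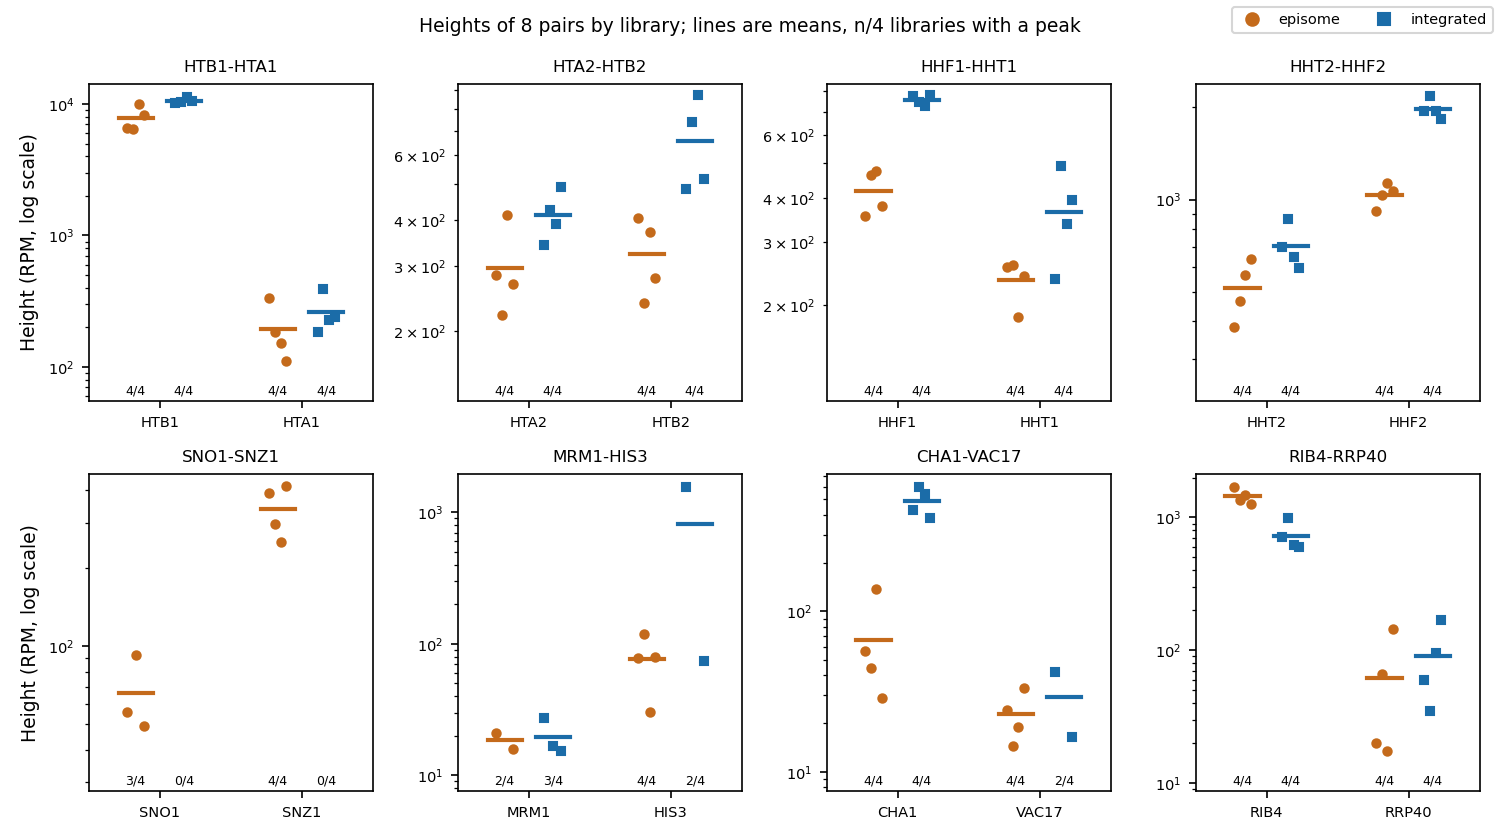
Heights in RPM on a log scale (y axis) of the left and right gene (x axis) of 8 pairs, with circles for episome and squares for integrated libraries, a line at the mean and the number of the 4 libraries with a peak below. SNZ1 has points in the episome libraries alone, the CHA1 circles lie between 28.7 and 137 RPM and its squares between 385 and 596 RPM, and 1 HIS3 square lies at 1545 RPM.

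The letters of the motifs were not equally common in divergent and tandem gaps. In the central 200 bp, TATAAA occurred in 27.2% of 1120 divergent and 37.7% of 2175 tandem gaps, and 7 A in a row (AAAAAAA) in 38.8% and 47.8%. The Reb1 letters TTACCC occurred in 15.1% and 14.5%. CACCCA, the Rap1 letters, occurred in 7.23% and 4.37%, CACGTG in 4.73% and 2.94%, and GCGATGAG, the PAC element of ribosome biogenesis genes, in 5.00% and 2.67%. Over the 200 bp upstream of 6001 coding genes the shares were 37.8% for TATAAA, 11.4% for TTACCC and 4.28% for CACCCA. Motifs were searched on both strands. CACGTG and ACGCGT read the same on each. The central windows of the 65 two-sided pairs with such a gap had 41.5% G and C, those of the 110 pairs without any peak 35.0%, and TTACCC occurred in 18.5% and 9.09% of them. Peaks chose these classes, so the values are descriptions with no test.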

How the data were processed

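Peak lists of 8 CAGE-seq libraries were used. Per the study's methods, the authors trimmed reads, aligned the 5′ read of each pair with bowtie2 (2.2.9) to sacCer3 with the synthetic locus added, and called peaks with macs2 (2.1.0), keeping duplicates. The settings given there name no control. The deposited lists are separate for each library and strand, so replicates were not pooled. Lists made on a reference that kept locus and vector apart from the chromosomes were used, and those with the locus inside chromosome XI were not. The deposited columns are peak positions, a score (10 times −log10 q, whole part), the fold enrichment ratio and −log10 p and q values. The submitters' processing notes name the same aligner and caller versions.

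The summit pileup was solved from the deposited fold, (pileup + 1)/(background + 1), and the Poisson p, assuming a 200 bp extension and a background over 10 kb. Pileups were whole within 0.05 for 100% of 22607 peaks under the pileup limit of 2000 set for this check. Taller peaks were not checked in this way. The lowest background of a list and a genome size of 12000000 gave the aligned reads per strand. Height is pileup per 1000000 reads of both strands (RPM). Genes came from R64, whose chromosomes hold all native peaks. A side with several peaks (121 of 8511) was given its tallest. Reads without molecular identifiers and with duplicates kept are not independent molecules.

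Shares were compared over libraries with exact sign or label permutations (p adjusted by Benjamini-Hochberg over 5 tests), and log2 heights of 1141 starts with limma 3.58.1 (R 4.3.3, trend, locus as covariate, threshold of 0.05). P-values measure the spread between these cultures. Python 3.11.15, scipy 1.17.1 and pandas 2.3.3 were used, and the steps were tested on simulated data. Named pairs were 14 textbook pairs (12 members), the 6 with the tallest lower side, the 6 most unequal, the 3 closest and 3 widest, those called in 1 context alone, the 8 with the largest passing changes, and those nearest the 1000 bp limit. The other 9 pairs with a passing side and the tallest one-sided pairs were added after values were seen, as were the sequence of MAP2-MRP21 and the trimming of longer stretches. Members and lists were chosen with earlier results of these data known. One sequence that the rule selects is not reported here.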

Additional observations from a re-analysis of the deposited data

Results flagged for a closer look

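Heights were examined for single libraries far from the other 3 of their context in 105 sets of 4 libraries, and 3 sets had one, where chance alone gives about 5% of sets. PRE2 stood at 492.3 RPM in HPRT1R integrated replicate 2, against 366.3 to 375.3 RPM in the other integrated libraries. NIS1 stood at 137.7 RPM in HPRT1R integrated replicate 1, against 87.4 to 93.5 RPM. EGD2 stood at 6130 RPM in HPRT1R episome replicate 2, against 3912 to 4257 RPM in the other episome libraries, and without that library its log2 difference between contexts was the highest of those obtained by leaving out a library, 0.74.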

How the results depend on the processing

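The 3 comparisons that passed (both-strand calls against the product of the single-strand shares, start share and leader against tandem genes) kept their direction and side of the threshold under minimum heights, folds and q values, replicate-supported peaks, shorter gaps, gaps without repeats and gap length classes. Leaving out a library gave ratios of 1.10 to 1.11, differences of 6.49 to 6.77 points and leader ratios of 0.919 to 0.935. Summits in place of 5′ ends gave a both-strand ratio of 1.07 (p = 0.797 by exact permutation), a start share difference of 0.865 points and a reversed leader ratio of 1.51 (both adjusted p = 0.0195 by exact sign permutation), differences of 0.224 points between contexts and -0.0204 points between loci, and a median distance between the ends of 451.75 in place of 268.8 bp. Summits lie downstream of the start by construction. A minimum fold of 4 gave a difference of -0.0611 points between loci. Fold enrichment in place of height gave a median ratio of sides of 2.52 in place of 2.85, and 1 gene and 0 divergent sides called between contexts, where 38 and 17 were called on heights. Median-normalized heights gave 30 genes and 11 sides, a fit without trend 6 and 2, and an unadjusted p under 0.05 200 and 92. Leaving out a library gave 18 to 33 genes and 8 to 16 sides, lowest for the sides without HPRT1 integrated replicate 2 or HPRT1R integrated replicate 1, and differences of -1.98 to -0.136 points between contexts and 0.848 to 2.37 points between loci. The cause of these changes was not tested. With the replicate block the shares differed by -1.16 points between contexts (exact p = 0.556) and 1.77 points between loci (exact p = 0.222), and 31 genes and 14 sides were called. Numbers did not pair the libraries (correlations of deviations from -0.067 to 0.0024).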

Other observations

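HIS3 was the only one of the 5933 gene starts above 1000 RPM in one replicate and without a peak in the other replicate of the same group. Within the HPRT1 integrated group, 130 starts were above 1000 RPM in either replicate, and 1 of these had no peak in the other. The other groups had 117, 125 and 118 such starts, and 0 without a peak in the other replicate. The HIS3 height of 1545 RPM in HPRT1 integrated replicate 1 compares with 30.2 to 119 RPM in the 5 other libraries that had a peak there, while MRM1, across the gap, had 27.1 RPM in that library against 15.3 to 21.1 RPM in the other 4 with a peak. The integrated strains had received a HIS3 plasmid during their construction. The part of this plasmid or of a strain marker in the value was not tested.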
